A study of Mus musculus with 12 samples.

Results

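Fc gamma receptors are the surface proteins through which microglia, the resident macrophages of the brain, bind the constant part of IgG antibodies. The 10 genes described here were chosen by name from the 55421 genes of the table. Earlier results of these data were known by then, so the choice was not blind to them. They are the receptor genes Fcgr1, Fcgr2b, Fcgr3 and Fcgr4, their shared signalling chain Fcer1g, and the downstream genes Syk, Vav1, Plcg2, Btk and Inpp5d. Fcgr2b, Fcgr4, Fcgr3 and Fcer1g lie close together on chromosome 1, between positions 170958617 and 171234365 (GRCm38). Inpp5d lies elsewhere on chromosome 1 (87620312 to 87720507), Fcgr1 on chromosome 3 (96282909 to 96293969), Plcg2 on 8 (117498291 to 117635142), Syk on 13 (52583173 to 52648792), Vav1 on 17 (57279100 to 57328031) and Btk on X (134542336 to 134583570). All 10 passed the filter on low counts, and their raw counts ranged from 330 for Fcgr4 to 29498 for Fcgr3 in a single library.

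As background, Fcgr1, Fcgr3 and Fcgr4 are the activating receptors of the mouse. They signal through the ITAM of the Fc receptor gamma chain (Fcer1g), a tyrosine motif that Src-family kinases phosphorylate and on which the kinase Syk then docks. Syk activates the exchange factor Vav1, the kinase Btk and the phospholipase Plcg2, which drive actin remodelling, calcium release and engulfment of antibody-coated targets. Fcgr2b carries an inhibitory motif instead and recruits the lipid phosphatase SHIP1, encoded by Inpp5d, which removes the membrane lipid that Btk and Plcg2 need.

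The libraries came from sorted brain microglia of mice aged P35 to P40, all labelled male, that were cultured without oxygen and glucose for 6 h (oxygen-glucose deprivation, OGD), which models ischaemia in a dish. In the KO-recovery group, cells of Slc2a5-/-::Cx3cr1EGFP mice, which lack the fructose transporter gene Slc2a5 and carry the Cx3cr1EGFP reporter, were kept for 1 day of recovery after OGD. In the WT-recovery group, cells of Cx3cr1EGFP mice, with the reporter and an intact Slc2a5, were treated likewise. The KO-OGD and WT-OGD groups hold cells of the same genotypes taken straight after OGD. Each group held 3 libraries, every group carried the reporter and went through OGD, and no sample without OGD was analysed here. The labels do not say whether replicates came from separate animals or cultures, and they do not say in which cells Slc2a5 was deleted. The treatment field of WT-recovery replicate 1 reads as OGD without recovery, against its title, and it was grouped by its title.

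Some libraries stood apart or went against their labels. Total counts were 13407885 to 19915479 in KO-recovery, 9885259 to 15495478 in WT-recovery, 31509859 to 44142877 in KO-OGD and 32426683 to 45347118 in WT-OGD. Slc2a5 had 0 to 1 counts in KO-recovery, 0 to 2 in WT-recovery, 4 to 17 in KO-OGD and 40 to 58 in WT-OGD, so it checks the genotype straight after OGD but not after recovery. Xist, the transcript of the inactive X chromosome, had 4101 to 7139 counts in KO-recovery and 0 to 3 in WT-recovery. It had 7040 to 10232 counts in KO-OGD and 5111 to 7656 in WT-OGD, although every sample was labelled male. Sex therefore cannot be told apart from genotype after recovery, nor from recovery in WT, where WT-recovery and WT-OGD differ in Xist as well. The recovery changes in WT, those of X-linked Btk among them, and the interaction carry the same limit. Both KO groups and WT-OGD held Xist, but at different levels. In counts per 1000000 of the scaled library (CPM), it was 312 to 354 in KO-recovery, 231 to 244 in KO-OGD and 151 to 159 in WT-OGD. These groups did not overlap, so recovery in KO and KO against WT after OGD also came with an Xist difference. Its source was not tested. Mitochondrial transcripts held 18.4% of counts in WT-recovery replicate 1 and 10.5% in KO-recovery replicate 2, against 4.196% to 8.23% in the other libraries. The summed level of Acta1, Col2a1 and Lum, genes of muscle, cartilage and connective tissue, was 67.2 and 61.5 CPM in KO-recovery replicates 1 and 3. It was 0.183 to 3.35 CPM in the other 10 libraries.

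The summed level of 11 microglial markers was 5149 to 6569 CPM in KO-recovery, 4323 to 5568 in WT-recovery, 3000 to 3273 in KO-OGD and 2628 to 2693 in WT-OGD, so the microglial label held in every library. Markers of other cells that bear Fc receptors were lower. The 5 monocyte markers summed to 33.8 to 37.8 CPM in KO-recovery, 27.4 to 33.3 in WT-recovery, 6.86 to 8.94 in KO-OGD and 1.15 to 2.15 in WT-OGD, so this sum was higher with recovery in both genotypes and higher in KO than in WT at both times. The 6 B cell markers summed to at most 2.63 CPM in any library, the 6 NK and T cell markers to at most 0.397, the 5 mast cell markers to at most 4.31 and the 8 neutrophil markers to at most 9.13, with Ly6g at 0 in all libraries. Markers of border macrophages, which also bear Fc gamma receptors, summed to 1297 to 1429 CPM in KO-recovery and 917 to 1243 CPM in WT-recovery. Their sum was 803 to 907 CPM in KO-OGD and 789 to 816 CPM in WT-OGD. In bulk libraries, fewer cells of a type and less RNA per cell cannot be told apart.

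The promoters of 4 members are shown because they hold the letters of motifs for factors known in macrophages. They are the 150 bases upstream of a RefSeq start on GRCm38.p6, in the direction of transcription, with motif matches in capitals. Coordinates are chr3:96293970-96294119 (minus strand) for Fcgr1, chr1:171059404-171059553 (minus strand) for Fcgr3, chr1:87620162-87620311 (plus strand) for Inpp5d and chr17:57278950-57279099 (plus strand) for Vav1. No annotated exon lies in these windows.
Fcgr1: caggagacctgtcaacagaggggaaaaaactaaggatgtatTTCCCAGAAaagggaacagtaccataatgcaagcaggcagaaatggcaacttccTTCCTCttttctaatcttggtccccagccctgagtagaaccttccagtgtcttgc
Fcgr3: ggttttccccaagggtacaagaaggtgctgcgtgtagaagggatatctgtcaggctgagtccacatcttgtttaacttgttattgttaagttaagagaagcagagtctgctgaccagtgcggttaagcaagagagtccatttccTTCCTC
Inpp5d: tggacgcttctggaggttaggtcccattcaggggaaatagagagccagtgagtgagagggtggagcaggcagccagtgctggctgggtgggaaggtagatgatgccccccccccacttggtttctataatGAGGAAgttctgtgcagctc
Vav1: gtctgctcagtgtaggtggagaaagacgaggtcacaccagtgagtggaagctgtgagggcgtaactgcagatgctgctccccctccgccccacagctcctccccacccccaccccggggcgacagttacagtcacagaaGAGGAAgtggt

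The motifs searched, on both strands of the 250 bases before each start, were GAGGAA (the core of sites for the myeloid factor PU.1), TTCNNNGAA (the STAT site called GAS) and the interferon-stimulated response element, written as GAAA, any pair of bases and GAAA again. Of the 10 members, 6 held GAGGAA in at least 1 start's window, which are Fcgr1, Fcgr3, Fcgr4, Inpp5d, Syk and Vav1. By comparison, 23.3% of all 32851 windows held it. The count is of genes and the share is of windows, so they are not like for like. Fcgr3 and Syk have more than 1 start and so more than 1 window, and Syk held the letters at only 1 of its starts. In the printed promoters, the PU.1 core lies at -55 to -50 in Fcgr1, -6 to -1 in Fcgr3, -20 to -15 in Inpp5d and -11 to -6 in Vav1, counted from the start. Only Fcgr1 among the members held the STAT letters, as TTCCCAGAA at -109 to -101, against 7.02% of all windows. The interferon-response letters were present in the window of Fcgr4 alone, against 2.98% of all windows. These matches describe letters and are no evidence of binding.

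Levels of different genes can be set side by side only per length, as CPM per kilobase of exon. The length used joins all annotated exons of a gene, not those of the transcripts expressed, and the order depends on it. It was 5790 bases for Fcgr2b and 3149 for Btk. In CPM not divided by length, Fcgr2b averaged 108.7 in KO-OGD and 98.2 in WT-OGD, above Btk at 76.5 and 72.6. Per kilobase, Fcer1g stood first and Fcgr3 second in all 4 groups. Fcer1g averaged 839 ± 106 CPM per kilobase in KO-recovery, 947 ± 64.6 in WT-recovery, 593 ± 37.3 in KO-OGD and 521 ± 12.2 in WT-OGD (SD, n = 3 each). Their libraries overlapped in KO-recovery, so the order of those genes was not separable there. Fcgr2b followed them in KO-recovery and in WT-recovery, at 107.6 ± 25.3 and 75.1 ± 3.32 CPM per kilobase. In KO-OGD it stood at 18.8 ± 0.682 and in WT-OGD at 17.0 ± 1.13 CPM per kilobase, behind Syk, Vav1, Plcg2 and Btk in both. Inpp5d was last in WT-recovery, KO-OGD and WT-OGD, and its libraries overlapped those of last-placed Fcgr4 in KO-recovery. Vav1 and Syk were neighbours whose libraries overlapped in both OGD groups.

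**Figure D1:**
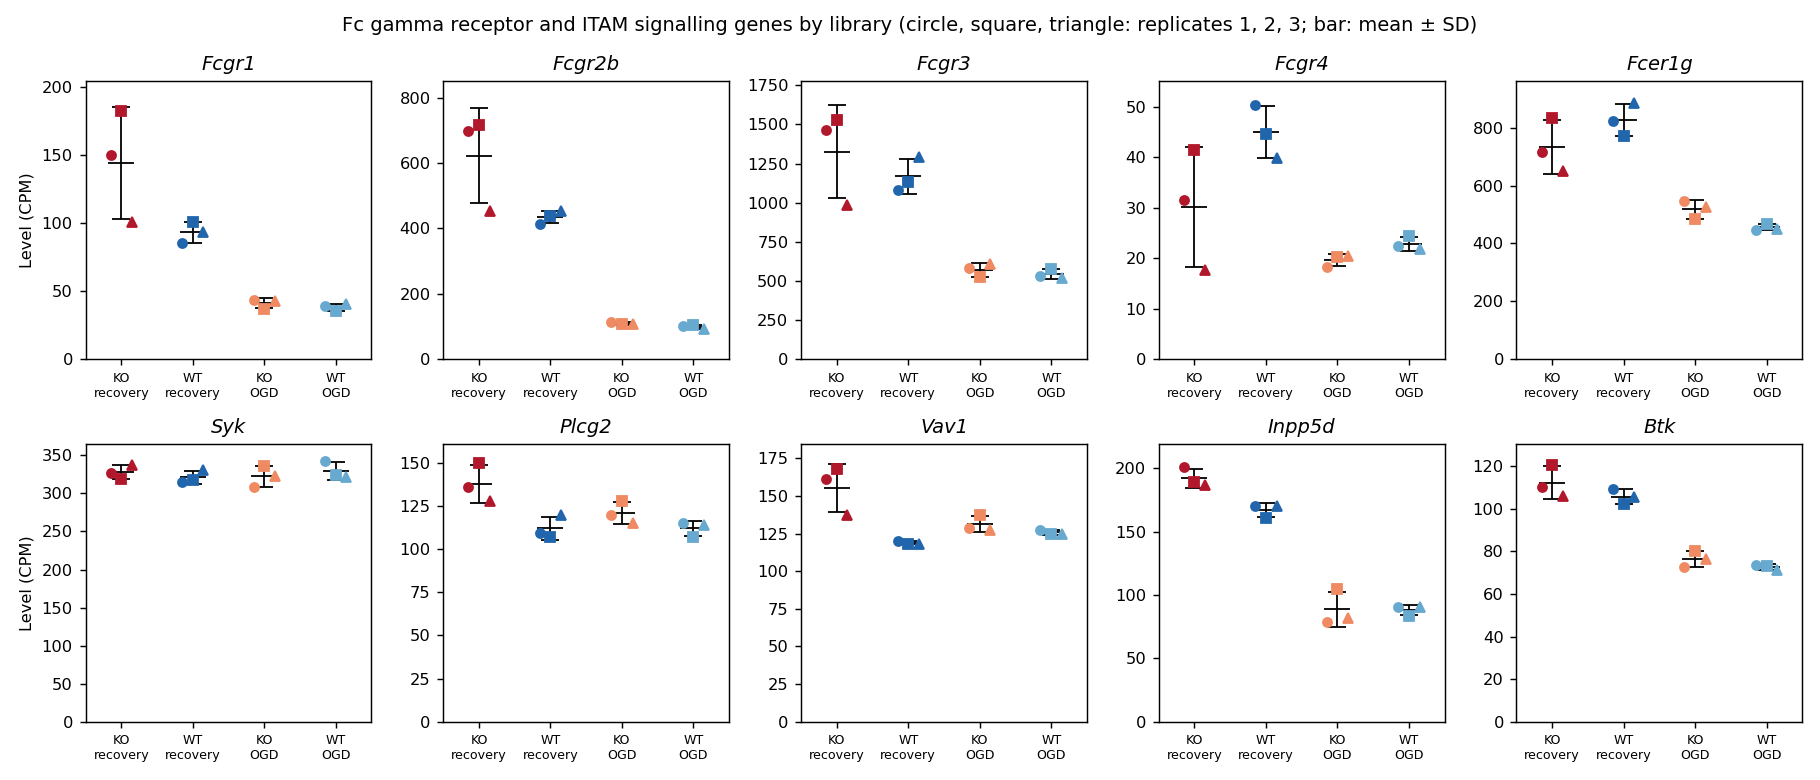
Level of each of the 10 genes in every library, in CPM on a linear axis from 0. Points are libraries, and bars are the mean and SD of the 3 libraries of a group, in the order KO-recovery, WT-recovery, KO-OGD and WT-OGD. Fcgr2b stands at 454 to 717 and 415 to 453 CPM in the recovery groups and at 90.8 to 113 CPM in the OGD groups, while Syk lies between 309 and 343 CPM throughout.

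After 1 day of recovery the mean levels of all 4 Fc gamma receptors and the gamma chain were above those straight after OGD in both genotypes. The rise was largest for the inhibitory receptor Fcgr2b, while the libraries of Fcgr4 overlapped in KO. In KO cells 8 of the 10 genes were called higher and none lower (edgeR's quasi-likelihood test, adjusted p below 0.05 over 18842 genes). In WT cells 7 were called higher and none lower. Recovery moved much of the transcriptome, with 29.3% of all genes called higher in KO and 26.9% in WT. Called lower were 29.6% in KO and 29.9% in WT, so that 59% of all genes in KO and 56.8% in WT were called in either direction. The median log2 fold change of the 10 members was 0.58 in KO and 0.89 in WT, where the median of all genes was 0.00 and -0.03.

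Fcgr2b, the inhibitory receptor, had 697, 717 and 454 CPM in KO-recovery against 113, 107 and 106 CPM in KO-OGD. WT-recovery libraries had 415, 436 and 453 CPM against 101, 103 and 90.8 CPM in WT-OGD. Every recovery library lay several-fold above every OGD library. The fold change was 5.73 in KO (log2 2.52, SE 0.14, adjusted p = 1.63e-09) and 4.43 in WT (log2 2.15, SE 0.14, adjusted p = 9.69e-09), tested with edgeR's quasi-likelihood method. Fcgr2b (chromosome 1, 170958617 to 170976547, minus strand, GRCm38) shares exonic sequence with an antisense gene, Gm38204, and 6.95% of its 50-base words also occur in other genes. The counting options are not known, so part of its reads may belong elsewhere.

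Fcgr1, the high-affinity IgG receptor, stood at 149.6, 182 and 100.5 CPM in KO-recovery, against 43.4, 36.7 and 42.4 CPM in KO-OGD. In WT it reached 85.4, 100.6 and 93.0 CPM after recovery, against 38.6, 35.3 and 40.5 CPM after OGD. Recovery and OGD libraries did not overlap in either genotype. It rose 3.52-fold in KO (log2 1.81, SE 0.17, adjusted p = 6.80e-07) and 2.44-fold in WT (log2 1.29, SE 0.16, adjusted p = 1.85e-05, edgeR's quasi-likelihood test).

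Fcgr3, the activating receptor with the most transcripts per length of the 4, had 1462, 1527 and 983 CPM in KO-recovery against 583, 523 and 605 CPM in KO-OGD. WT values were 1081, 1132 and 1293 CPM after recovery against 529.5, 577 and 521 CPM after OGD. The groups were separate in both genotypes, by 2.32-fold in KO (log2 1.21, SE 0.14, adjusted p = 2.75e-06) and 2.15-fold in WT (log2 1.11, SE 0.14, adjusted p = 7.82e-06), tested with edgeR's quasi-likelihood method. Of its 50-base words 9.58% also occur in Fcgr2b, so those reads may be split between the pair.

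Fcgr4, an activating receptor close to Fcgr3 on chromosome 1, was the least counted member. It had 31.4, 41.4 and 17.7 CPM in KO-recovery against 18.3, 20.2 and 20.5 CPM in KO-OGD. KO-recovery replicate 3 lay below all KO-OGD libraries, so the groups overlapped. In WT all recovery libraries, at 50.3, 44.6 and 39.9 CPM, lay above the OGD libraries at 22.4, 24.5 and 21.7 CPM. The WT change was 1.96-fold (log2 0.97, SE 0.22, adjusted p = 0.00235, edgeR's quasi-likelihood test). The KO change was 1.52-fold (log2 0.60, SE 0.22, adjusted p = 0.0329), and that call was lost in 8 of 20 alternative fits. Among the single-library fits it was lost without each KO-OGD library in turn, without KO-recovery replicate 1 or 2, or without WT-recovery replicate 2, where it fell to a log2 of 0.31 without KO-recovery replicate 2.

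Fcer1g, which the activating receptors need for surface expression and signalling, had 717, 834 and 650.3 CPM in KO-recovery against 547, 483 and 525 CPM in KO-OGD. WT-recovery had 824, 773 and 886 CPM against 448, 468 and 451 CPM in WT-OGD. No libraries overlapped. It rose 1.41-fold in KO (log2 0.50, SE 0.10, adjusted p = 4.57e-04) and 1.82-fold in WT (log2 0.86, SE 0.10, adjusted p = 3.14e-06), tested with edgeR's quasi-likelihood method.

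Among the downstream genes, the phosphatase Inpp5d moved most. It had 200.5, 189 and 187 CPM in KO-recovery against 79.0, 105 and 81.8 CPM in KO-OGD. WT-recovery libraries held 170.3, 161 and 169.8 CPM against 90.4, 83.4 and 90.7 CPM in WT-OGD. Both genotypes were cleanly separated, with a 2.17-fold rise in KO (log2 1.12, SE 0.10, adjusted p = 1.52e-07) and a 1.89-fold rise in WT (log2 0.92, SE 0.10, adjusted p = 1.40e-06, edgeR's quasi-likelihood test). The genes for the inhibitory receptor and its phosphatase thus both rose in both genotypes.

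Btk, a Tec-family kinase that activates phospholipase C gamma, had 110.2, 121 and 106 CPM in KO-recovery against 72.8, 80.0 and 76.6 CPM in KO-OGD. In WT it had 109, 102 and 106 CPM after recovery against 73.8, 73.0 and 71.1 CPM after OGD. Its rise was 1.47-fold in KO (log2 0.55, SE 0.07, adjusted p = 1.25e-05) and 1.45-fold in WT (log2 0.54, SE 0.07, adjusted p = 1.83e-05), tested with edgeR's quasi-likelihood method, and no libraries overlapped. The calls of Fcgr1, Fcgr2b, Fcgr3, Fcer1g, Inpp5d and Btk in both genotypes, and of Fcgr4 in WT, held in all 20 alternative fits.

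Syk, the kinase that docks on the ITAM, was the steadiest member. It had 326.5, 319 and 337 CPM in KO-recovery against 309, 336 and 322 CPM in KO-OGD. WT-recovery had 315, 317 and 331 CPM against 343, 324.5 and 321 CPM in WT-OGD. All groups overlapped. The 95% interval of its log2 fold change was -0.13 to 0.18 in KO and -0.19 to 0.12 in WT.

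Vav1, the exchange factor for Rac GTPases, had 162, 168 and 137.2 CPM in KO-recovery against 129, 137.5 and 128 CPM in KO-OGD. KO-recovery replicate 3 lay within the KO-OGD range. Its 1.18-fold rise in KO (log2 0.24, SE 0.08, adjusted p = 0.0163, edgeR's quasi-likelihood test) was lost in 6 of 20 alternative fits, among them those without KO-OGD replicate 1 or 3 or KO-recovery replicate 1 or 2. WT values were 120.0, 118 and 118 CPM after recovery against 128, 125 and 125 CPM after OGD, with a 95% interval of -0.25 to 0.09 on the log2 scale. The WT libraries did not overlap although the difference was not called.

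Plcg2, the phospholipase that releases the calcium signal, had 136, 149.7 and 128 CPM in KO-recovery against 119.5, 128 and 115 CPM in KO-OGD. The KO groups were separated only narrowly, and the log2 difference of 0.19 (SE 0.08) did not pass edgeR's quasi-likelihood test (adjusted p = 0.0549). Without KO-OGD replicate 2 or without KO-recovery replicate 3 it was called. In WT, 109, 107 and 119.4 CPM after recovery overlapped 115, 107 and 114 CPM after OGD, and the 95% interval of the log2 fold change was -0.18 to 0.17. Non-overlap between recovery and OGD was common, at 7 members in KO and 8 in WT, beside 61.2% and 67.1% of all genes.

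Markers of microglia, border macrophages and monocytes moved with recovery too. Of 11 microglial markers 6 were called higher and 3 lower in KO, and 8 higher and 3 lower in WT. Of 7 border macrophage markers 5 were higher in KO, and in WT 5 were higher and 1 lower. The monocyte marker Ccr2, a chemokine receptor, was called higher in KO and in WT. It had 22.7 to 32.1 CPM in KO-recovery against 6.82 to 8.84 CPM in KO-OGD, and 25.6 to 30.03 CPM in WT-recovery against 1.03 to 1.93 CPM in WT-OGD. The defining markers Ly6c2, Plac8 and Ly6c1 were at or below 0.366 CPM in all libraries. Their part in the receptor changes was not tested.

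**Figure D2:**
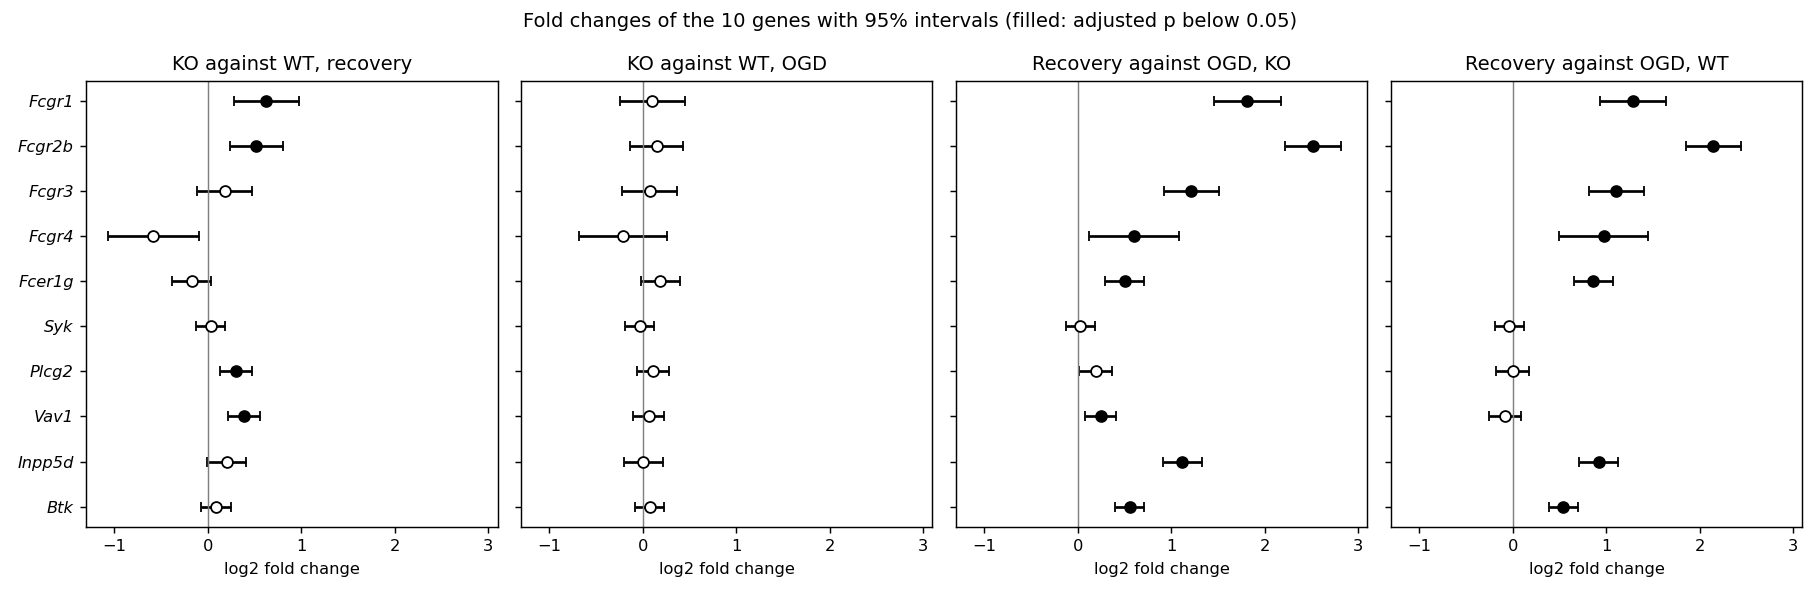
Log2 fold change of each gene in 4 comparisons, with 95% intervals from edgeR. Filled points have an adjusted p below 0.05, and the vertical line is at 0. Fcgr2b shows the largest recovery change of the 10 genes in both genotypes, and none of the 10 is called between KO-OGD and WT-OGD.

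The comparison of KO with WT after recovery asks whether loss of Slc2a5 is accompanied by another level of the receptor pathway 1 day after the insult. Of the 10 genes, 4 were called higher in KO-recovery and none lower, namely Fcgr1, Fcgr2b, Vav1 and Plcg2 (edgeR's quasi-likelihood test). Over all genes 10.1% were called higher, 12% lower and 22.2% in either direction. Members without overlap between the groups were Fcgr2b, Plcg2, Vav1 and Inpp5d, or 4 of 10, beside 33.5% of all genes. The median log2 difference of the members was 0.19 and that of all genes 0.01.

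Vav1 had the clearest difference between KO-recovery, at 162, 168 and 137.2 CPM, and WT-recovery, at 120.0, 118 and 118 CPM. All KO libraries were higher, and the WT libraries lay almost on top of each other. The log2 difference was 0.39 (SE 0.08, adjusted p = 0.00324, edgeR's quasi-likelihood test), and it was called in all 20 alternative fits, where adjusted p reached at most 0.0254.

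Fcgr1 averaged 144 ± 41.1 CPM in KO-recovery and 93.0 ± 7.60 CPM in WT-recovery (SD, n = 3 each). KO-recovery replicate 3, at 100.5 CPM, lay just under the highest WT-recovery library at 100.6 CPM, so the groups overlapped. Its log2 difference was 0.63 (SE 0.16, adjusted p = 0.0141, edgeR's quasi-likelihood test). Without KO-recovery replicate 2 the log2 difference was 0.42 and still called. Without WT-recovery replicate 1 the adjusted p was 0.0544.

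Fcgr2b averaged 623 ± 146 CPM in KO-recovery and 435 ± 19.2 CPM in WT-recovery (SD, n = 3 each). The lowest KO-recovery library, replicate 3 at 454.4 CPM, and the highest WT-recovery library at 452.8 CPM barely cleared each other. The log2 difference was 0.52 (SE 0.13, adjusted p = 0.0114, edgeR's quasi-likelihood test). It was no longer called without KO-recovery replicate 1 (adjusted p = 0.0580). The antisense gene Gm38204 moved alongside, with 83.5, 76.4 and 61.4 CPM in KO-recovery against 42.4, 51.8 and 45.9 CPM in WT-recovery.

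Plcg2 averaged 138 ± 11.1 CPM in KO-recovery and 112 ± 6.59 CPM in WT-recovery (SD, n = 3 each), with all KO libraries higher. The log2 difference was 0.30 (SE 0.08, adjusted p = 0.0162, edgeR's quasi-likelihood test). Without KO-recovery replicate 2 the adjusted p was 0.0756, and without WT-recovery replicate 2 it was 0.0890. Fitting the recovery groups alone also ended this call (adjusted p = 0.0586).

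Fcgr4 ran the other way in its means, at 30.2 ± 11.9 CPM in KO-recovery and 45.0 ± 5.21 CPM in WT-recovery (SD, n = 3 each), but the groups overlapped through KO-recovery replicate 2. The log2 difference of -0.59 (SE 0.22) did not pass edgeR's quasi-likelihood test (adjusted p = 0.0805). It was called lower in 5 of 20 alternative fits, among them the one without KO-recovery replicate 2 (log2 -0.87, adjusted p = 0.00586), and it was -0.31 without KO-recovery replicate 3.

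The other 5 members were not called. Fcer1g averaged 734 ± 92.8 CPM in KO-recovery and 828 ± 56.5 CPM in WT-recovery, and the 95% interval of its log2 difference was -0.38 to 0.03. Fcgr3 averaged 1324 ± 297 and 1168 ± 111 CPM, with an interval of -0.11 to 0.47. Without KO-recovery replicate 3, which was the lowest of that group for all 4 receptors and Fcer1g, Fcgr3 was called too, making 5 members. Inpp5d averaged 192 ± 7.44 CPM in KO-recovery and 167 ± 5.34 CPM in WT-recovery (SD, n = 3 each). Its libraries did not overlap, and the adjusted p was 0.151 by edgeR's quasi-likelihood test. For Syk the interval was -0.13 to 0.19, and for Btk -0.07 to 0.25.

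Measured library features moved with this comparison. Leaving out KO-recovery replicate 2 and WT-recovery replicate 1, the libraries with the highest mitochondrial share of their groups, left Vav1 higher and Fcgr4 lower as the called members, and Fcgr1, Fcgr2b and Plcg2 were no longer called (adjusted p = 0.134, 0.131 and 0.121 by edgeR's quasi-likelihood test). Leaving out KO-recovery replicates 1 and 3, those with muscle and connective tissue transcripts, gave log2 differences of 0.96 for Fcgr1, 0.72 for Fcgr2b, 0.49 for Vav1 and 0.42 for Plcg2. In the same fit the log2 difference of Fcgr4 was -0.12. That fit has 1 KO-recovery library, which is assumed to vary like the other groups. Among border macrophage markers 2 of 7 were called higher, which were Pf4 at 235 to 421 CPM in KO-recovery against 60.1 to 91.6 CPM in WT-recovery and F13a1 at 6.91 to 14.6 against 2.08 to 2.59 CPM. The monocyte marker Ccr2 was not called. Of 8 astrocyte markers 6 were called lower, with sums of 53.2 to 88.2 CPM in KO-recovery and 121 to 147 CPM in WT-recovery. The part of these features in the member differences was not tested.

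The balance between activating and inhibitory receptors was described as the length-scaled sum of Fcgr1, Fcgr3 and Fcgr4 over Fcgr2b in each library. It is a summary of chosen genes, so no p-value is given. The ratio was 7.68, 7.94 and 7.89 in KO-recovery, 9.71, 9.64 and 10.4 in WT-recovery, 18.8, 18.0 and 20.8 in KO-OGD and 19.4, 20.5 and 21.2 in WT-OGD. The OGD groups overlapped each other, and both stood far above the recovery groups. KO-recovery lay below WT-recovery in every library, including replicate 3, in which all 4 receptors were at their lowest of the KO-recovery group. Fcgr2b made up 11.3% ± 0.174 of the 4 receptors' length-scaled sum in KO-recovery, 9.17% ± 0.340 in WT-recovery, 4.97% ± 0.356 in KO-OGD and 4.68% ± 0.208 in WT-OGD (SD, n = 3 each).

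Within the activating receptors, the ratio of Fcgr4 to Fcgr3 per length was 0.0307 ± 0.00636 in KO-recovery and 0.0539 ± 0.0109 in WT-recovery. It was 0.0479 ± 0.00505 in KO-OGD and 0.0582 ± 0.000459 in WT-OGD (SD, n = 3 each). Every KO-recovery library, at 0.0249 to 0.0375, lay below every other library. The lowest of the rest was WT-recovery replicate 3 at 0.0427.

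**Figure D3:**
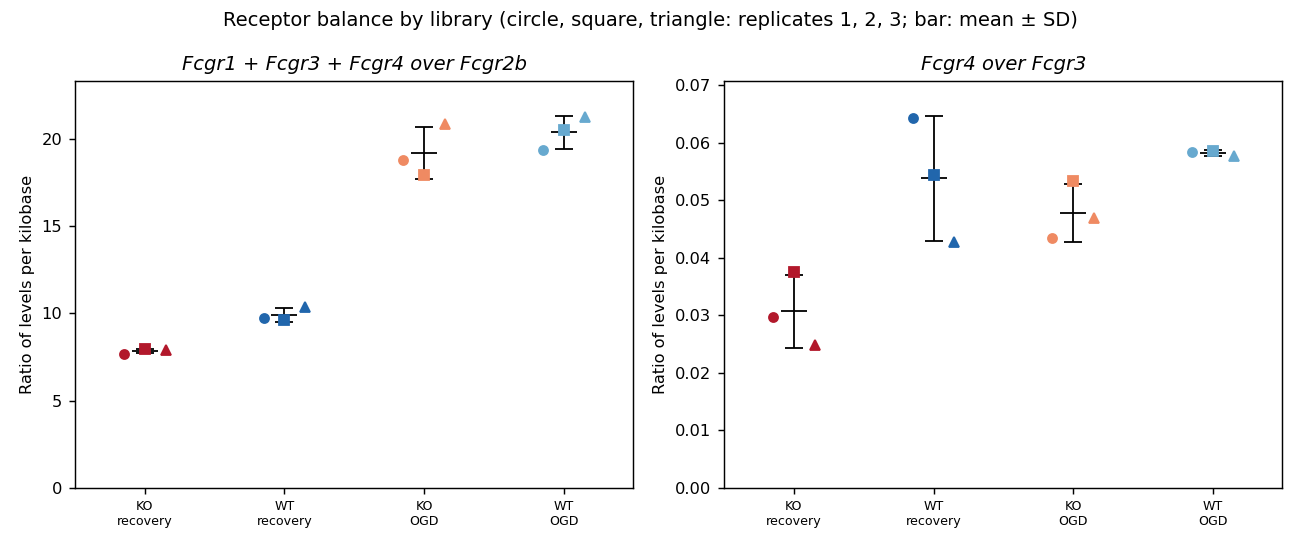
Left, the ratio of the activating receptors Fcgr1, Fcgr3 and Fcgr4 over the inhibitory Fcgr2b, and right, the ratio of Fcgr4 over Fcgr3, each from levels per kilobase, with a point for each library and bars for the group mean and SD. The left ratio means 7.84 in KO-recovery, 9.91 in WT-recovery, 19.2 in KO-OGD and 20.4 in WT-OGD, and in the right panel the KO-recovery libraries lie lowest, at 0.0249 to 0.0375.

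Straight after OGD no member differed between the genotypes by the test. Of 10 members 0 were called in KO-OGD against WT-OGD by edgeR's quasi-likelihood test, 0 had an unadjusted p below 0.05, and DESeq2 also called 0. Over all genes 7.49% were called, 0.966% higher and 6.52% lower. The median log2 difference of the members was 0.07 and that of all genes -0.01. Members whose libraries did not overlap were Fcgr2b, Fcer1g and Plcg2 with KO higher and Fcgr4 with KO lower, or 4 of 10, beside 30.4% of all genes. Fcer1g averaged 519 ± 32.6 CPM in KO-OGD and 456 ± 10.7 CPM in WT-OGD (SD, n = 3 each), and the 95% interval of its log2 difference was -0.02 to 0.40. Fcgr4, with 19.7 ± 1.18 and 22.9 ± 1.42 CPM, had an interval of -0.69 to 0.25. The narrowest were those of Syk, -0.19 to 0.12, and Btk, -0.08 to 0.23, so these data do not exclude changes of that size. The monocyte marker Ccr2 was called higher in KO-OGD. All 8 astrocyte markers were called lower in KO-OGD, with sums of 36.9 to 59.4 CPM in KO-OGD and 104 to 160 CPM in WT-OGD.

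Whether recovery changed the members by a different amount in KO than in WT was tested as the interaction. By edgeR's quasi-likelihood test it called 0 of 10 members, beside 5.25% of all genes (2.89% with the more positive and 2.36% with the more negative change in KO). DESeq2 also called 0. The members' median was 0.15 and that of all genes 0.03. At an unadjusted p below 0.05 there were 3. They were Fcgr1 with a log2 difference of changes of 0.53 (SE 0.23, adjusted p = 0.208), Vav1 with 0.33 (SE 0.11, adjusted p = 0.113) and Fcer1g with -0.36 (SE 0.14, adjusted p = 0.149). Of these, Fcgr1 and Vav1 were called without KO-recovery replicate 3, and Fcer1g without KO-recovery replicate 2. Fits with a single library left out called up to 3 members at once, a further member among them. The calls of Fcgr1, Fcgr2b, Vav1 and Plcg2 after recovery but not straight after OGD are therefore not shown to differ between the times.

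Other genes of the pathway were grouped into 5 lists of 94 genes by role, of which 84 passed the filter on low counts. In KO cells 45 of the 84 were called higher and 19 lower after recovery, and in WT cells 39 higher and 19 lower (edgeR's quasi-likelihood test). The whole-transcriptome shares were 29.3% higher and 29.6% lower in KO, and 26.9% higher and 29.9% lower in WT. KO-recovery against WT-recovery gave 21 higher and 7 lower, or 33.3% of the 84 beside 22.2% of all genes. KO-OGD against WT-OGD gave 3 higher and 2 lower, or 5.95% beside 7.49% of all genes. Only this total is set against the background, which was uneven, with 0.966% of all genes called higher and 6.52% lower. The median log2 fold change of the 84 was 0.30 and 0.22 for recovery in KO and in WT, and 0.09 and 0.04 for KO against WT after recovery and after OGD.

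ITAM and related adaptors and receptors were called higher in 11 of 14 and lower in 1 after recovery in KO. In WT they were called higher in 9 and lower in 1. Of all genes, 29.3% were called higher in KO and 26.9% in WT. Trem1, a receptor that amplifies inflammation through the adaptor Tyrobp, had 1.83, 1.47 and 4.12 CPM in KO-recovery against 0.4498, 0.460 and 0.356 CPM in KO-OGD. It was called higher by a log2 of 2.57 (SE 0.39, adjusted p = 5.13e-05, edgeR's quasi-likelihood test) in KO and 2.97 (SE 0.35, adjusted p = 4.63e-06) in WT. Clec4n, which encodes the fungal mannan receptor Dectin-2, rose by a log2 of 1.97 in KO and 2.09 in WT. Clec4e, which encodes Mincle, fell by 2.47 on the log2 scale in KO and by 2.05 in WT. It had 6.12 to 12.9 CPM in KO-recovery against 37.1 to 60.2 CPM in KO-OGD, and 9.69 to 14.1 CPM in WT-recovery against 42.03 to 59.5 CPM in WT-OGD. Pilrb1, an activating paired receptor whose exons overlap another gene, rose by a log2 of 2.16 in KO and 2.52 in WT. Between the genotypes after recovery, 1 of 14 was called higher and 2 lower, a share of 21.4% near the 22.2% of all genes. Clec7a, the beta-glucan receptor Dectin-1, had 2786, 2861 and 2802 CPM in KO-recovery against 1949, 2067 and 1981 CPM in WT-recovery, a log2 difference of 0.49 (SE 0.09, adjusted p = 0.00104, edgeR's quasi-likelihood test). Trem1 was lower in KO-recovery by a log2 of -1.18 and Pilrb1 by -1.01, and the Trem1 call was lost without KO-recovery replicate 1 or 2 or WT-recovery replicate 2 or 3.

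Of 12 other Fc receptors only 4 passed the filter. Fcgrt, the neonatal receptor that recycles IgG inside cells, had 45.3, 52.9 and 29.3 CPM in KO-recovery against 63.7, 76.8 and 62.4 CPM in WT-recovery. It was called lower there by a log2 of -0.68 (SE 0.16, adjusted p = 0.00709, edgeR's quasi-likelihood test), and lower in KO-recovery than in KO-OGD by -0.44 (adjusted p = 0.0235), a call that ended without KO-OGD replicate 2 or 3. Without KO-recovery replicates 1 and 3 neither was called. Fcrl1, a B cell Fc receptor-like gene, was at 0.898 to 1.34 CPM in KO-recovery against 2.93 to 4.44 CPM in KO-OGD, and was called lower by a log2 of -1.63. Neither was called for recovery in WT, where the log2 fold change was 0.28 for Fcgrt and -0.54 for Fcrl1 (adjusted p = 0.126 and 0.0858, edgeR's quasi-likelihood test).

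Proximal kinases and adaptors moved in both directions, with 7 of 18 higher and 7 lower after recovery in KO and 7 higher and 6 lower in WT. That is 77.8% called in KO and 72.2% in WT, beside 59% and 56.8% of all genes. The Src-family kinase Fgr had 37.1, 32.5 and 47.1 CPM in KO-recovery against 16.8, 12.5 and 13.98 CPM in KO-OGD, and rose by a log2 of 1.44 in KO and 0.89 in WT. Pik3cd, the leukocyte PI3-kinase catalytic subunit, rose by 1.38 in KO and 1.62 in WT. Yes1, a more broadly expressed Src-family kinase, fell by 1.03 on the log2 scale in KO and was not called in WT, where the 95% interval was -0.90 to 0.01. Straight after OGD, Fgr was lower in KO-OGD, at 16.8, 12.5 and 13.98 CPM against 26.2, 25.1 and 25.3 CPM in WT-OGD (log2 -0.82, SE 0.12, adjusted p = 9.94e-04, edgeR's quasi-likelihood test), a call kept in all 20 alternative fits. The kinase Src and the adaptor Blnk were each called higher there by a log2 of 0.33. The Src call was lost without WT-OGD replicate 3 and that of Blnk without replicate 1 or 3 of either OGD group. After recovery 5 of 18 were called higher in KO and 1 lower, or 33.3% beside 22.2% of all genes, among them the Btk relative Tec (log2 0.34), the adaptor Sh3bp2 (log2 0.29, lost without WT-recovery replicate 2) and the adaptor Lat2 (log2 0.46), whose exons overlap another gene and whose call was lost without KO-recovery replicates 1 and 3.

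Downstream effectors were called higher in 13 of 23 and lower in 2 after recovery in KO, and higher in 11 and lower in 3 in WT. The 65.2% called in KO and 60.9% in WT were near the 59% and 56.8% of all genes. Nfatc2, a calcium-dependent transcription factor, rose by a log2 of 2.11 in KO and 1.79 in WT. The Rac-bound kinase Pak1 rose by 1.43 in KO and 1.31 in WT, and Rac2, the haematopoietic Rac GTPase, by 1.13 in KO and 1.33 in WT. Between the genotypes after recovery 7 of 23 were called higher in KO and none lower, beside 10.1% and 12% of all genes. Vav3, a relative of Vav1, had 21.02, 23.3 and 21.8 CPM in KO-recovery against 11.6, 14.04 and 14.1 CPM in WT-recovery (log2 0.72, SE 0.11, adjusted p = 4.22e-04, edgeR's quasi-likelihood test). Itpr1, a calcium channel opened by the product of Plcg2, had 24.3, 24.5 and 24.5 CPM in KO-recovery against 15.9, 14.5 and 15.3 CPM in WT-recovery, with a log2 difference of 0.69 (SE 0.09, adjusted p = 1.08e-04). Its exons overlap other genes. Malt1, a protease of the complex that links CARD9 to NF-kappaB, differed by a log2 of 0.66 but was not called without KO-recovery replicates 1 and 3.

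Inhibitory receptors, phosphatases and ubiquitin ligases were called higher in 13 of 25 and lower in 7 after recovery in KO, and higher in 11 and lower in 9 in WT. Called were 80% in each genotype, beside 59% of all genes in KO and 56.8% in WT. Dok2, an adaptor that dampens kinase signalling, rose by a log2 of 2.34 in KO and 2.29 in WT, and the inhibitory lectin Clec12a by 2.03 in KO and 2.02 in WT. The inhibitory paired receptor Pilra, whose exons overlap another gene, rose by 2.13 in KO and 2.29 in WT. Between the genotypes after recovery 8 of 25 were higher in KO and 3 lower, or 44% beside 22.2% of all genes. Siglece, an inhibitory receptor for sialic acid, had 2.53, 1.88 and 2.84 CPM in KO-recovery against 5.59, 11.2 and 14.1 CPM in WT-recovery, a log2 difference of -2.09 (SE 0.28, adjusted p = 1.36e-04, edgeR's quasi-likelihood test). In KO-OGD it was also lower than in WT-OGD, by a log2 of -1.05, a call lost in 6 of 20 alternative fits, among them those without each OGD library other than WT-OGD replicate 2. Clec12a was higher in KO-OGD by 0.56, which was not called without KO-OGD replicate 1 or WT-OGD replicate 2. Cd22, an inhibitory sialic acid receptor with an overlapping gene, was higher in KO-recovery by 0.59, and Ubash3b, a phosphatase that acts on Syk, by 0.58. Both calls held in all 20 alternative fits.

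**Figure D4:**
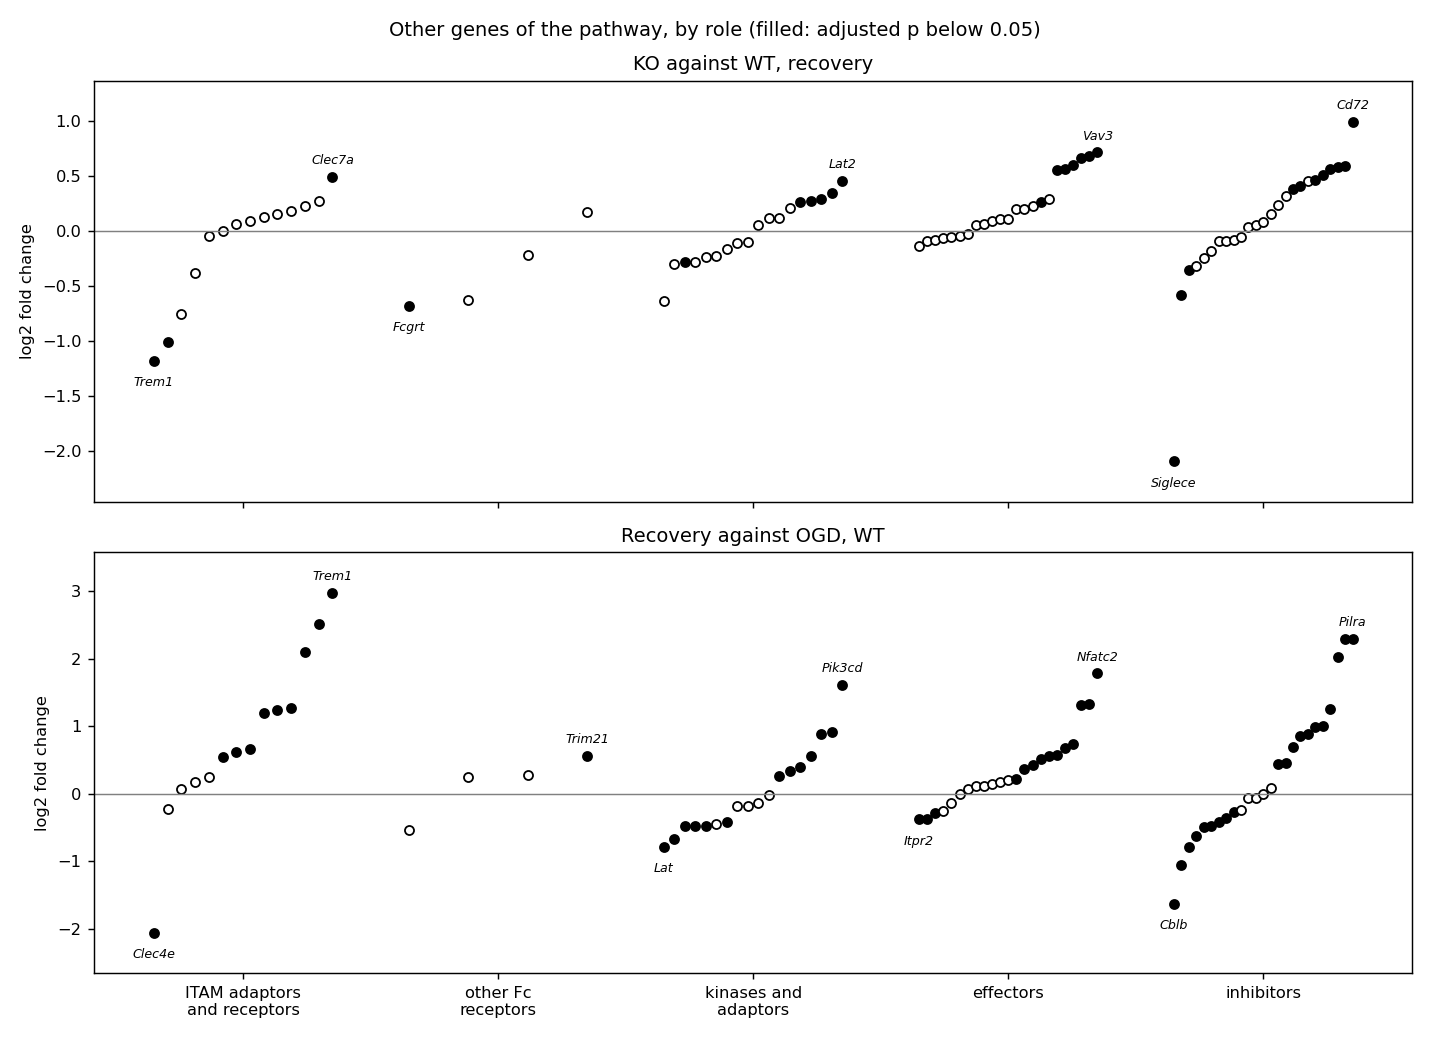
Log2 fold changes of the 84 other pathway genes that passed the filter, sorted within 5 lists, for KO against WT after recovery and for recovery against OGD in WT. Filled points have an adjusted p below 0.05 by edgeR, and the called genes at the ends of each list are named. Siglece is the lowest point of the upper panel at -2.09.

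For each member the tested genes with the most similar profile were found by the root mean square difference of log2 CPM, centred on the mean of the 12 libraries. These are descriptions over libraries that share groups and depth. The nearest to Fcgr1 were Igtp (0.10), Irf1 (0.14) and Itsn1 (0.15), beside Fcgr1's own root mean square spread of 0.82. Those nearest to Fcgr2b, with a spread of 1.18, were Zbp1 (0.14), Plxdc2 (0.17) and Rab19 (0.18). Fcgr3, with a spread of 0.60, lay nearest to Pmvk (0.09), Gm15489 (0.10) and Akr1b10 (0.11). Fcer1g had Ubl5, Prdx5 and Acat3 at 0.07 each, beside its spread of 0.36. Fcgr4 had Nlgn2 at 0.14, Pcbp4 at 0.19 and Pdk2 at 0.20, beside its spread of 0.52. Inpp5d lay nearest to Wdfy2, Pfkfb4 and 3110082I17Rik, at 0.07 to 0.08 beside a spread of 0.53, and Btk to Hdgf, Crat and Ikbkg, at 0.04 to 0.05 beside 0.28. Vav1 lay nearest to Recql5, Ddx56 and Top3a at 0.05, beside 0.16, and Plcg2 to Trak1, L3mbtl2 and Sympk at 0.04 to 0.06, beside 0.14. The spread of Syk, 0.04, was no larger than its distance to its nearest genes, so its list, led by Trappc13, Eloa and Akap13, carries little information.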

How the data were processed

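RNA was sequenced from 12 libraries of sorted mouse microglia. The authors deposited raw counts per gene, as whole numbers that are not normalized. HISAT2, featureCounts and GRCm38 were used per the submitters' processing notes. Versions and counting options (strand, reads in several places or genes) are not given in the sources used here, so values of overlapping and near-identical genes are uncertain. Libraries were made with a stranded total RNA kit per the labels' protocols, while the molecule field names polyA RNA. Of 55421 identifiers, 55240 matched GENCODE M21 without version number and 54673 with it, and the 181 others held at most 0.0394% of a library's counts. Groups follow the titles, and each p-value covers only sample-to-sample spread, which may be technical. Replicate pairs differed by more than sampling noise, with a chi-square per degree of freedom of 6.66 to 60.2.

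The analysis ran in R 4.3.3. Low genes were removed with filterByExpr of edgeR 4.0.16, which left 18842, and scaled by TMM. All 12 libraries entered a robust quasi-likelihood model with a mean for each group and 8 residual degrees of freedom, and p-values were adjusted by Benjamini-Hochberg over all genes tested, with calls at 0.05. The common biological coefficient of variation was 0.119. CPM are counts per 1000000 of the TMM-scaled library size, and n = 3 per group. The edgeR steps were tried on simulated counts with known changes in the KO-OGD libraries, for the comparison of KO-OGD with WT-OGD only. Alternatives were DESeq2 1.42.0 and its size factors, no filter, only the compared groups, a replicate block, thinning to equal depth, each library left out, and the libraries of high mitochondrial share or of muscle transcripts left out. Under each, the median over all genes stayed within 0.1 of 0 on the log2 scale.

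The members and lists were chosen with earlier results of these data known. Named pathway genes are, per list and comparison of groups, the 3 called genes of largest log2 fold change whose groups do not overlap. A gene that this rule names and one of the cell type markers are not reported singly here. Further genes are named only where a text value turns on them (Xist, Slc2a5, marker genes, Gm38204, and genes called in the interaction). Promoter sequences and starts are from RefSeq (GRCm38.p6), where all 10 members matched, and motif searches were chosen after the expression results were seen. Depth limits Fcgr4 most among the members, at 330 counts or more per library, and intervals cover the spread between libraries.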

Additional observations from a re-analysis of the deposited data

Results flagged for a closer look

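No member was flagged. Among the 84 other pathway genes tested, 5 had a recovery change that differed between KO and WT in the interaction of edgeR's quasi-likelihood test, all with the more positive change in KO. They are 5.95% of the 84, near the 5.25% of all genes called there. The calcium channel gene Itpr1 had a log2 difference of changes of 0.86 (SE 0.12, adjusted p = 0.00134), with 24.3 to 24.5 CPM in KO-recovery, 14.5 to 15.9 in WT-recovery, 9.23 to 9.76 in KO-OGD and 9.89 to 11.03 in WT-OGD. The inhibitory receptor gene Cd22 had 0.56 (SE 0.11, adjusted p = 0.0104). Both were called in all 19 alternative fits. Ubash3b, a phosphatase that acts on Syk, had 0.63 (SE 0.15, adjusted p = 0.0293) and was called in 12 of 19. Clec7a, the Dectin-1 gene, had 0.54 (SE 0.12, adjusted p = 0.0203) and was called in 16 of 19. Dock2, an exchange factor for Rac, had 0.50 (SE 0.13, adjusted p = 0.0330) and was called in 8 of 19. Exons of Itpr1, Cd22 and Dock2 overlap other genes. WT-recovery libraries hold at most 3 counts of Xist, unlike the other groups, so sex cannot be told apart from this difference.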

How the results depend on the processing

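Counts of members called ranged as follows when each library was left out in turn: 3 to 5 for KO against WT after recovery, 0 for KO against WT after OGD, 6 to 9 and 7 for recovery in KO and in WT, and 0 to 3 for the interaction. For KO against WT after recovery, 2 members were called without the libraries of highest mitochondrial share. For the interaction, 1 was called without a filter, 1 without those libraries and 3 without those with muscle transcripts. Pathway genes called in KO against WT after OGD, 5 in the report, were 10 with DESeq2, 13 without a filter, 15 with only the compared groups, 12 and 10 without those sets of libraries, and 2 to 9 with single libraries left out. In the interaction, also 5, they were 9 with DESeq2, 10 without a filter, 8 without the libraries of highest mitochondrial share, 9 without those with muscle transcripts, and 2 to 13 with single libraries left out. With single libraries left out, 19 to 37 pathway genes were called in KO against WT after recovery, 60 to 67 for recovery in KO and 53 to 64 in WT. Causes were not tested. Counts not divided by length gave receptor ratios of 2.41 in KO-recovery, 3.00 in WT-recovery, 5.81 in KO-OGD and 6.15 in WT-OGD, and without Fcgr3 they were 0.732, 0.958, 1.68 and 1.95, since these are other quantities by construction. Single libraries left out moved the ratios to 7.79 to 7.91 in KO-recovery, 9.68 to 10.1 in WT-recovery, 18.4 to 19.8 in KO-OGD and 20.0 to 20.9 in WT-OGD.

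Same-numbered replicates gave no sign of deviating together (correlations -0.228 to 0.156, against -0.244 to 0.233 for differently numbered ones). With 3 libraries per group, this cannot exclude that the numbers pair samples. With the replicate block, 5 members were called in KO against WT after recovery, 0 after OGD, 8 and 7 for recovery in KO and in WT and 0 for the interaction, and the pathway genes called in the interaction were 3.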
